A study of Mus musculus with 12 samples.

Results

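Eye organoids of Rax-GFP mouse embryonic stem cells were profiled by bulk RNA-seq, and the libraries came in a first set with replicate numbers 1 and 2 and a second set with numbers 3 and 4. The second set held 6 of the 12 libraries and the first set the other 6, as chosen by the replicate number and the cell type in the sample labels ("eye organoid" for the first set, "retina progenitors" for the second). All cells were heterozygous Rax-GFP knock-ins, in which GFP is inserted at the locus of Rax, an early regulator of the eye field. Organoids were taken at day 7, and each set held 2 control libraries, 2 treated with GNE-140, an inhibitor of lactate dehydrogenase (LDHi), for 3 days, and 2 treated with both lactate and GNE-140 (LDHi+lactate), where lactate was given from 12 hours before the inhibitor. All derive from a single embryonic stem cell line, so the genotype was the same in both sets, and an organoid mixes neural retina, pigment epithelium and other tissues. The methods describe 4 independent experiments and whole eye organoids, and give no step in which retina progenitors were sorted.

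Cells sense a shortage of amino acids or an excess of unfolded protein through a shared switch, the integrated stress response. It lowers general translation and raises that of ATF4, a transcription factor whose targets import amino acids, build serine and glycine and charge transfer RNAs. Unfolded protein in the endoplasmic reticulum also activates XBP1 and ATF6, which raise the chaperones of that compartment, while low oxygen stabilises HIF1A, which raises glycolytic enzymes and secreted factors such as adrenomedullin.

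Libraries of the first set held 37284585 to 48271386 counts and those of the second set 22174002 to 29919036. Ribosomal RNA genes took 0.0285 to 0.0507% of counts in the first set and 0.099 to 0.141% in the second. No library repeated another of its treatment and set, since their counts differed by 24.3 to 57.4 times the sampling noise (chi-square per degree of freedom). Libraries with the same number deviated together from their group means, with correlations across genes of 0.506 to 0.599 in the first set and 0.27 to 0.322 in the second (18786 genes). Each set thus rests on 2 experiments, and p-values over 12 libraries take libraries as independent that are not. For this reason a blocked fit, in which libraries of a replicate number are correlated (limma), and a fit on sums over each number, 2 against 2, stand beside the 12-library fit (edgeR). The set, its experiments, its depth and its cell type label cannot be told apart, and in bulk RNA fewer cells of a type cannot be told apart from less RNA per cell.

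Of 18786 genes tested, 2447 (13%) were higher and 2505 (13.3%) lower in the second set with treatment as a covariate (edgeR quasi-likelihood, adjusted p under 0.05). With the replicate block 1010 (5.38%) were higher and 892 (4.75%) lower (limma), and all 1902 were also called, with the same sign, over 12 libraries. On the summed counts 4 (0.0213%) were higher and 14 (0.0745%) lower, beside 1776 and 1484 at an unadjusted p under 0.05. In 1026 genes (5.46%) the 6 libraries of the second set lay above the other 6 with no overlap, and in 1173 (6.24%) below. The median absolute log2 fold change was 0.256, so that most differences were small. Without replicate 2 the 12-library counts became 1559 and 1370, and without replicate 4 they became 1473 and 1213. Experiments of the same set differed too. Between numbers 1 and 2 the fit called 2569 genes and between 3 and 4 it called 1705, against 4526 to 7462 between numbers of different sets, with 3 libraries a number (edgeR). In the median gene the set took 18.3% of the variance of log2 CPM (counts scaled to a common library size), the replicate number within a set 20.1% and the treatment 16%.

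The genes that passed all 3 fits centred on amino acid supply. Of the 14 lower genes, 11 belonged to a list of ATF4 targets and amino acid response genes. The remaining 3 were Pck2, the mitochondrial form of phosphoenolpyruvate carboxykinase, Cars, which charges the cysteine transfer RNA, and Trim66. The 4 higher genes were 2 histone H2B genes, the processed pseudogene Gm12957 and the kinase gene Lmtk2. Lmtk2 read 54.2 to 68.6 CPM in the first set (median 59.0) and 116 to 152 in the second (median 141), with a log2 fold change of 1.19 ± 0.05 (SE; edgeR adjusted p = 3e-07). Trim66 fell from 15.1 to 50.6 CPM (median 29.0) to between 1.91 and 2.88 (median 2.17). Its log2 fold change was -3.70 ± 0.24 (edgeR adjusted p = 3.34e-06).

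In the ATF4 list, 25 of 30 genes tested were lower in the second set and 2 higher over 12 libraries, and 24 and 2 with the block. The shares of all genes were 13.3% and 13% over 12 libraries, and 4.75% and 5.38% with the block. In 23 of the list members the 6 libraries of the second set lay below those of the first with no overlap, against 6.24% of all genes. The median log2 fold change of the list was -1.23, against -0.008 over all genes. It was -1.15 within control, -1.20 within LDHi and -1.28 within LDHi+lactate. The 4 pairs of numbers across the sets, which share libraries, gave -1.20 to -1.28, whereas 2 minus 1 gave 0.11 and 4 minus 3 gave 0.01. In the median gene of this list the set took 92.9% of the variance and the treatment 2.08%. With any one replicate number left out, 24 to 26 members were called lower.

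**Figure D1:**
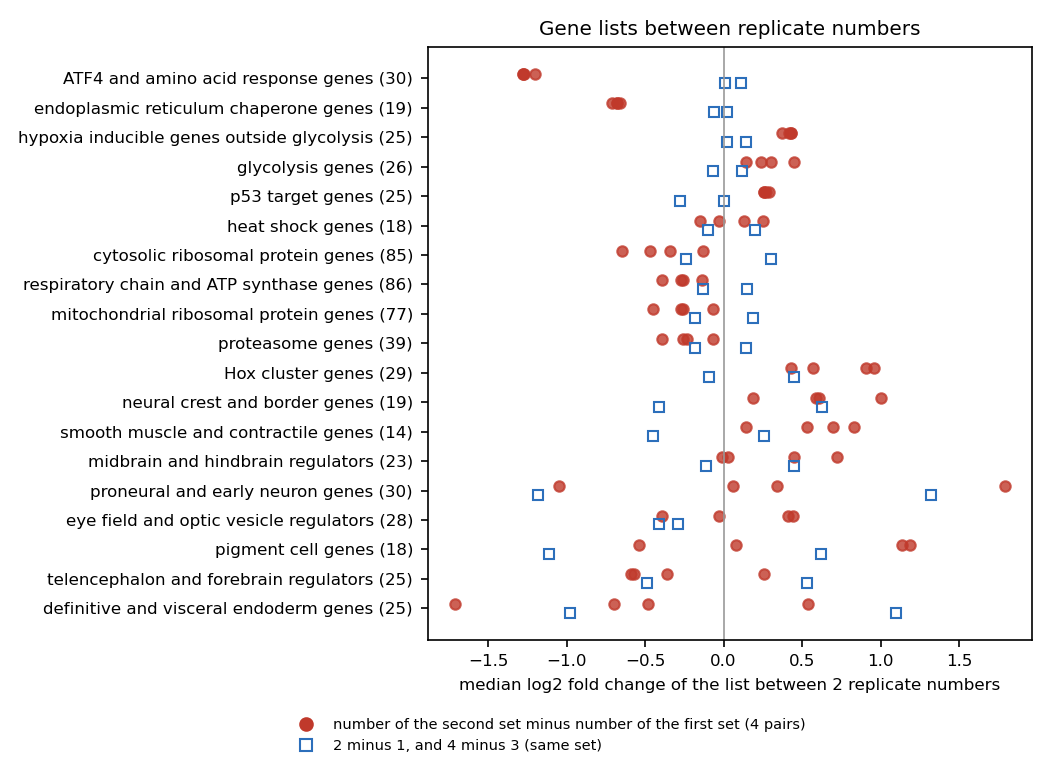
Median log2 fold change of 19 gene lists between pairs of replicate numbers, with the number of genes tested in brackets. Filled circles are the 4 pairs across the sets (second minus first) and open squares the pairs within a set. In the ATF4 and endoplasmic reticulum chaperone lists all 4 circles lay below 0 and apart from the squares, while in the proneural list the squares stood at -1.18 and 1.32 and in the endoderm list at 1.10 and -0.98.

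Atf4 itself, on chromosome 15 (80255184 to 80257541, plus strand, GRCm38), read 169.9 to 229 CPM in the first set (median 207) and 57.8 to 95.8 in the second (median 82.0). The groups did not overlap, and the log2 fold change was -1.42 ± 0.08 (edgeR adjusted p = 8.92e-07). Atf5, a related factor that ATF4 induces, read 252 to 533 CPM (median 427) and then 42.5 to 65.7 (median 52.98). Its log2 fold change was -2.86 ± 0.14 (edgeR adjusted p = 4.79e-07).

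Importers of amino acids formed the next group. Slc7a3, a carrier of arginine and lysine, read 62.6 to 119 CPM in the first set (median 89.9) and 7.49 to 23.5 in the second (median 9.83), a log2 fold change of -2.89 ± 0.21 (edgeR adjusted p = 7.65e-06). Slc7a1, a second carrier of the same amino acids, read 181 to 259 CPM (median 241) against 56.6 to 84.3 (median 68.7). Slc7a5, which pairs with Slc3a2 to import large neutral amino acids, read 441 to 553 CPM (median 520) against 138 to 183 (median 153). All 3 carriers stood apart between the sets in every library. Slc7a11, the cystine importer, read 39.7 to 83.1 CPM (median 57.1) against 1.97 to 7.11 (median 5.15), and had the largest fall of the list, a log2 fold change of -3.66 ± 0.31 (edgeR adjusted p = 2.01e-05). On the summed counts it stood at an adjusted p of 0.0746 (edgeR). Slc1a4, a carrier of serine and alanine, fell by 2.38 on the log2 scale and Slc3a2 by 1.10.

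**Figure D2:**
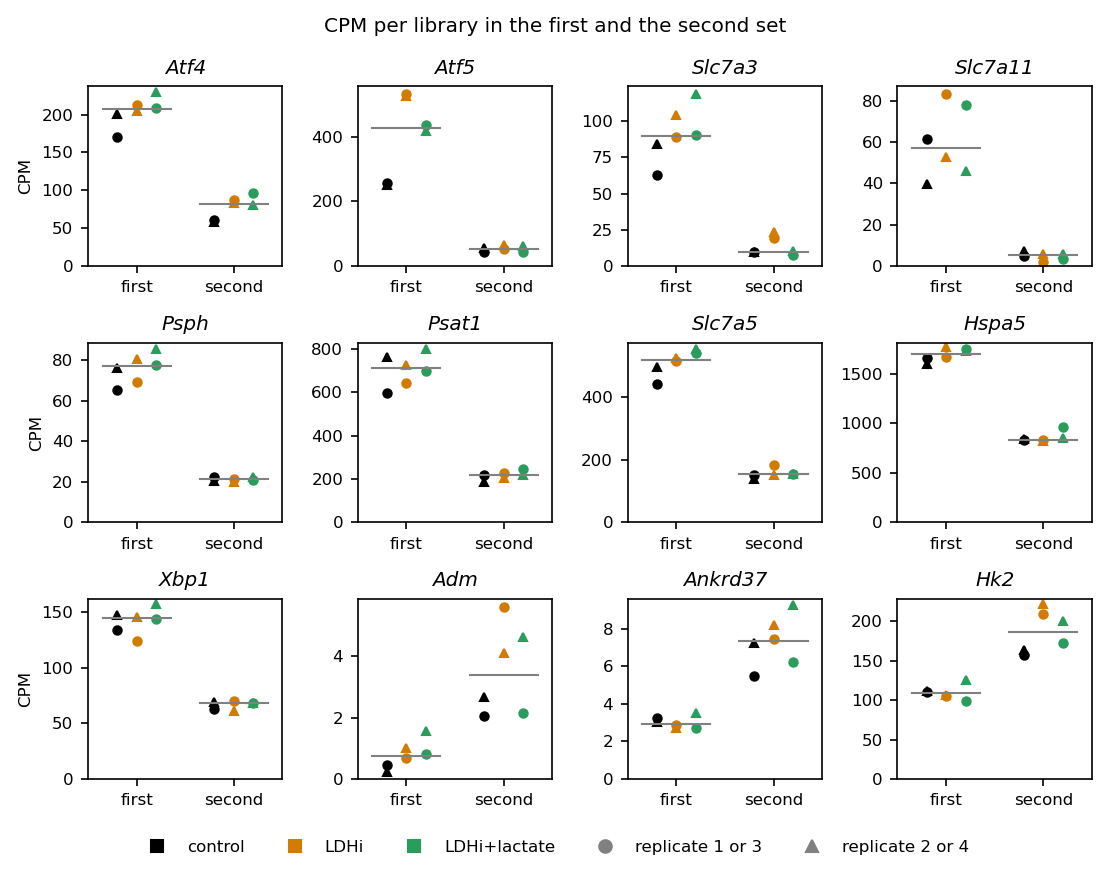
CPM of 12 genes in each library, the first set on the left and the second on the right, by treatment (colour) and replicate number (shape), with grey lines at the set medians. For Atf4, Atf5, Slc7a3, Slc7a11, Psph, Psat1, Slc7a5, Hspa5 and Xbp1 all 6 libraries of the second set lay below those of the first, and for Adm, Ankrd37 and Hk2 all 6 lay above.

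Enzymes that build serine, glycine and proline fell in step. Psph, the last enzyme of serine synthesis, read 65.5 to 85.4 CPM in the first set (median 76.9) and 19.9 to 22.6 in the second (median 21.2), a log2 fold change of -1.83 ± 0.07 (edgeR adjusted p = 8.33e-08). Psat1, the enzyme before it, fell by 1.70 on the log2 scale and Phgdh, the first of the pathway, by 1.04. Shmt2 and Mthfd2, which pass the carbon of serine into mitochondrial folate, fell by 1.38 and 1.40. Pycr1 and Aldh18a1, which make proline, fell by 1.31 and 1.15. Pck2 read 97.5 to 147 CPM (median 113) against 32.0 to 39.1 (median 34.1). Each of these 8 genes was called in the 12-library and the block fit and stood apart between the sets in every library.

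Other members fell by small or large amounts, or rose. Asns, the asparagine synthetase, fell by 0.79 on the log2 scale (SE 0.15; edgeR adjusted p = 0.00258), and its range of 364.7 to 605 CPM in the first set overlapped that of 189 to 390.4 in the second. Chac1, which degrades glutathione, read 13.9 to 18.3 CPM against 1.79 to 3.94 and fell by 2.57, and Trib3, a feedback inhibitor of the response, fell by 1.90. Ddit4, which is also a hypoxia target, rose by 0.82 ± 0.16 (SE; edgeR adjusted p = 0.00334), and Cebpb rose by 0.69 ± 0.14 (SE; edgeR adjusted p = 0.00477). Without replicate 4 neither was called, with edgeR adjusted p of 0.0583 and 0.0726. Asns, Chac1, Trib3, Ddit4 and Cebpb were named after their values were seen, as were Phgdh, Pycr1 and Aldh18a1.

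ATF4 binds a composite element that joins letters read by C/EBP with letters read by ATF factors, here searched as TGATG, any base and AA on both strands from 250 bases before to 50 after each start site (RefSeq promoters, GRCm38.p6). It was found in 9 of 26 list members with a promoter (34.6%), against 367 of 12820 genes tested (2.86%). These were Trib3, Asns, Chac1, Pycr1, Slc7a11, Vldlr, Nupr1, Aars and Gars. Of the list members that passed all 3 fits, only Pycr1 was among them. Atf4, Atf5, Slc7a3, Slc7a5, Slc7a1, Psph, Psat1, Shmt2 and Mthfd2 were not. The matches below carry the letters in capitals within 20 flanking bases on the gene's strand. They come from genes of the program with a match before the start site and were chosen after the matches were seen, as examples only. A match describes letters and not a bound site. The list was made of ATF4 targets and amino acid response genes. Its share with the element therefore describes the list and not the difference between the sets. Slc7a11 holds 2 elements in opposite orientation, shown in overlapping windows (chr3:50443652-50443699 and chr3:50443633-50443680, minus strand). Chac1 (chr2:119351029-119351076, plus), Pck2 (chr14:55540143-55540190, plus) and Aars (chr8:111033710-111033757, plus) hold theirs as the reverse complement.
Slc7a11 forward: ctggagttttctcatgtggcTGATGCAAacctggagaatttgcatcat
Slc7a11 reverse: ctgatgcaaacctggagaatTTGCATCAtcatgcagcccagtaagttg
Chac1: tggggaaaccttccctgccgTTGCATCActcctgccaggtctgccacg
Pck2: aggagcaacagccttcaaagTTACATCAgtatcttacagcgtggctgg
Aars: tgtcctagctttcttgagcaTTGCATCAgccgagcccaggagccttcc

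The enzymes that charge transfer RNAs split into separate classes. The cytosolic genes were drawn by symbol (a single letter followed by ars, or Eprs), so Farsa and Farsb were not among them. Of 18 cytosolic synthetases tested, 11 were lower in both the 12-library and the block fit and stood apart between the sets in every library. Of all genes 13% were higher and 13.3% lower by edgeR, 5.38% and 4.75% with the block, and 6.24% stood apart below. The log2 fold changes of the 11 ran from -1.41 (Cars) through -1.14 (Yars), -0.92 (Iars) and -0.85 (Gars) to -0.68 (Wars). The other 7 lay between -0.17 (Vars) and 0.09 (Kars), and none was called or stood apart. Yars, for tyrosine, read 260.2 to 321 CPM in the first set (median 301) and 123 to 150.4 in the second (median 130.4). Kars, for lysine, read 308 to 378 CPM (median 335) against 342 to 388 (median 353), and these ranges overlapped. The element above was found in 5 of 6 lower genes with a promoter (Tars, Yars, Gars, Aars and Iars) and in 0 of 4 not called. Of 17 mitochondrial synthetases, 2 were higher and 4 lower over 12 libraries, and 1 each with the block. Lars2, for mitochondrial leucine, rose by 1.11 ± 0.16 (SE; edgeR adjusted p = 0.000625). These families, and Yars, Iars, Gars, Wars, Vars, Kars and Lars2, were picked after their values were seen.

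**Figure D3:**
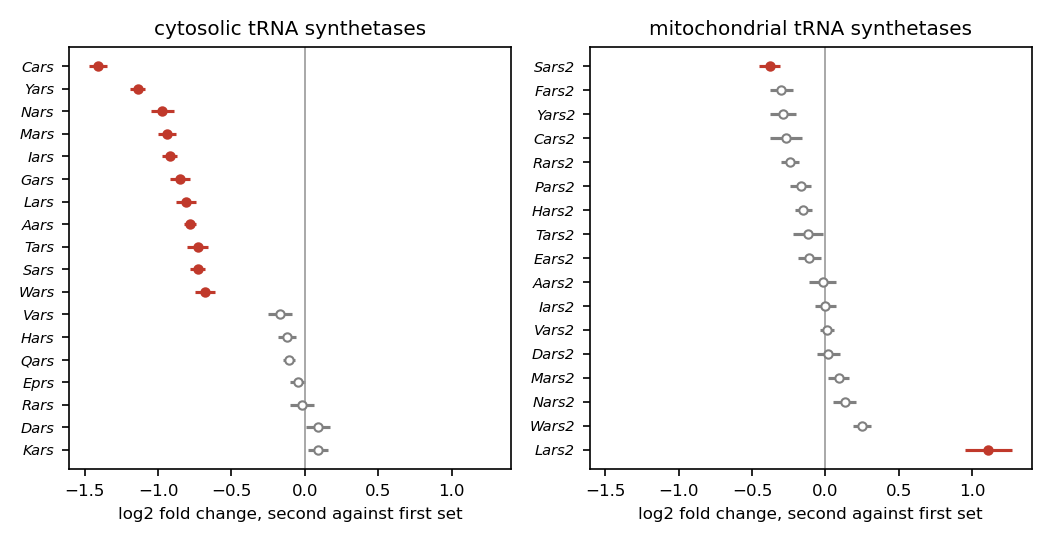
Log2 fold change of the second against the first set for 18 cytosolic and 17 mitochondrial tRNA synthetase genes, with bars of 1 SE (edgeR, 12 libraries); filled points were also called with the replicate block. The cytosolic genes, drawn by symbol and without Farsa and Farsb, fall into 11 at -0.68 or below and 7 between -0.17 and 0.09.

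Chaperones of the endoplasmic reticulum were lower as a group. Of 19 genes tested, 18 were lower and none higher over 12 libraries (edgeR; 16 and 0 by limma with the block), and 17 stood apart in every library. Over all genes 13.3% were lower by edgeR and 4.75% with the block, and 6.24% stood apart below. The list's median log2 fold change was -0.64, and it was -0.58 within control, -0.66 within LDHi and -0.64 within LDHi+lactate. Across the sets the pairs of numbers gave -0.66 to -0.71, against 0.02 and -0.06 within a set. On the summed counts 0 members passed the adjusted threshold (edgeR) and 17 were lower at an unadjusted p under 0.05. Hspa5, the main chaperone of this compartment (chr2, 34771970 to 34777547, plus strand), read 1597 to 1771 CPM in the first set (median 1702) and 821 to 968 in the second (median 837). Its log2 fold change was -0.99 ± 0.05 (edgeR adjusted p = 3e-07). Xbp1, which drives part of the response, read 124 to 157 CPM (median 145) against 61.3 to 69.8 (median 68.6), a log2 fold change of -1.09 ± 0.06 (edgeR adjusted p = 8.92e-07). Herpud1, which helps to remove misfolded proteins and was named after its values were seen, fell by 1.76 on the log2 scale.

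The endoplasmic reticulum stress element, searched as CCAAT, 9 bases of any kind and CCACG on both strands, is the site that ATF6 with NF-Y binds. It was found in 8 of 17 chaperone genes with a promoter (47.1%) and 24 of 12820 genes tested (0.187%), and in 0 of 26 members of the ATF4 list. Canx, which was not called, was among the 8. These shares describe lists of known genes of each response and not the difference between the sets. The composite ATF4 element was found in 1 of the 17 (5.88%), Herpud1. Windows are printed below for Hspa5 (chr2:34772005-34772063, plus), Hsp90b1 (chr10:86705618-86705676, minus) and Creld2 (chr15:88819500-88819558, plus, reverse complement). The search itself fixes the outer blocks and leaves the middle 9 letters free, so the windows say nothing about conservation. These 3 were chosen after the matches were seen. Hsp90b1, which folds secreted proteins, fell by 0.59 on the log2 scale and Creld2 by 1.05.
Hspa5: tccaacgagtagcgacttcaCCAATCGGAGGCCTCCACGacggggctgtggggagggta
Hsp90b1: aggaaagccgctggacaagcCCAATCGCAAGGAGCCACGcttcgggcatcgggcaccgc
Creld2: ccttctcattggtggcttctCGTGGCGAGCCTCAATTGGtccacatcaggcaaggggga

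Hypoxia inducible genes moved the other way. Outside glycolysis 16 of 25 were higher and 2 lower (edgeR), and 8 and 1 with the block. The shares of all genes were 13% higher and 13.3% lower (edgeR), and 5.38% and 4.75% with the block. The list's median log2 fold change was 0.42, with 0.37 to 0.43 over the pairs across the sets and 0.02 and 0.14 within a set. Within treatments it was 0.24 in control, 0.62 in LDHi and 0.47 in LDHi+lactate. Without replicate 2 the fit called 9 members higher and without replicate 4 it called 10. Adm, which encodes the vasodilator adrenomedullin, read 0.241 to 1.56 CPM in the first set (median 0.752) and 2.04 to 5.60 in the second (median 3.39). The sets did not overlap, and the log2 fold change was 2.24 ± 0.31 (edgeR adjusted p = 0.00052). Ankrd37, a target of HIF1A, read 2.69 to 3.51 CPM (median 2.95) against 5.49 to 9.26 (median 7.35), a log2 fold change of 1.28 ± 0.15 (edgeR adjusted p = 0.000181). Stc1, a secreted hormone named after its values were seen, read 1.92 to 3.48 CPM against 3.85 to 11.2.

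Of 26 glycolysis gene IDs tested, 12 were higher and none lower over 12 libraries (edgeR; 7 and 0 by limma with the block, and 7 and 0 without replicate 3), with a median log2 fold change of 0.24. This median was 0.05 within control, 0.42 within LDHi and 0.29 within LDHi+lactate. Beside these counts, 13% of all genes were higher by edgeR and 5.38% with the block. Hk2, which commits glucose to the pathway, read 99.2 to 126 CPM in the first set (median 109) and 158 to 222 in the second (median 186), a log2 fold change of 0.76 ± 0.09 (edgeR adjusted p = 0.000123). Pfkfb3, which activates phosphofructokinase, rose by 0.64 ± 0.08 (SE; edgeR adjusted p = 0.000212), with ranges that overlapped. Slc16a3, the lactate exporter MCT4, was named after its values were seen and rose by 0.82 ± 0.13 (SE; edgeR adjusted p = 0.000991). The core of the HIF site, ACGTG or GCGTG on either strand, was found in 19 of 20 hypoxia genes with a promoter (95%) and in 21 of 24 glycolysis genes (87.5%), against 64.5% of all. Both lists were made of known genes, so these shares describe the lists and not the difference between the sets.

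Smaller groups of stress and growth genes also differed. Over all genes 13% were higher and 13.3% lower (edgeR), and 5.38% and 4.75% with the block (limma). In each list of this paragraph the share lower over 12 libraries was below that of all genes. Among p53 targets 12 of 25 were higher and 3 lower (edgeR), with a median of 0.27 across libraries. Zmat3, an RNA-binding p53 target, rose by 0.86 ± 0.08 (SE; edgeR adjusted p = 2.77e-05). With the block 5 and 2 were called. Without replicate 1 the count higher was 7, without replicate 2 it was 6, and without replicate 3 it was 7. The lower genes included Sesn2, which is on the ATF4 list too and read 248 to 349 CPM against 125 to 204. Of 18 heat shock genes, 5 were higher and 2 lower (edgeR), and 4 and 0 with the block. Hspa4l, a co-chaperone, read 72.2 to 115 CPM (median 93.3) against 158 to 223 (median 185), and Hspb8 rose by 0.71 on the log2 scale. Of 37 cell cycle genes, 10 were higher and 3 lower (edgeR), and 7 and 2 with the block. Without replicate 1 the counts were 6 and 7, and without replicate 3 they were 7 and 6. Cenpe, a motor of the mitotic kinetochore, read 110 to 135 CPM (median 119.9) against 188 to 237 (median 213), and Ccna2 rose by 0.49. Ccnd1, the G1 cyclin, was named after its values were seen and fell by 0.66, so the cell cycle list did not move in a single direction and its median was -0.03.

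Genes of the ribosome and of mitochondrial respiration were lower, by small amounts. Among all genes 13.3% were lower and 13% higher by edgeR, and 4.75% and 5.38% with the block (limma). Of 85 cytosolic ribosomal protein genes 44 were lower and 2 higher over 12 libraries (edgeR; 29 and 1 by limma with the block), with a median log2 fold change of -0.42. Rpl13 read 75.7 to 92.2 CPM in the first set (median 84.2) and 46.2 to 58.3 in the second (median 51.4). Of 86 respiratory chain and ATP synthase genes 49 were lower and 2 higher (edgeR; 31 and 0 by limma), with a median of -0.26. Uqcrq, a subunit of complex III, read 109 to 156 CPM (median 137) against 60.7 to 79.9 (median 70.9). Mitochondrial ribosomal proteins had 42 of 77 lower and the proteasome 23 of 39, with 14 and 10 in the block fit and medians of -0.27 and -0.25. These 4 families were also unlike between experiments of the same set: the medians of 2 minus 1 ran from 0.14 to 0.30 and those of 4 minus 3 from -0.24 to -0.13. Without replicate 2 the counts lower in the 4 families were 18, 23, 10 and 8, and without replicate 4 they were 22, 23, 10 and 8. Ribosomal protein genes have many processed copies, among which reads can be split.

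Exon length moved with the same genes. The median log2 fold change rose from -0.10 and -0.12 in the 2 shortest of 5 equal bins of genes to 0.14 in the longest bin (Pearson r = 0.0968 of log2 length and Spearman rho = 0.194 across 18776 genes, as a description). The share called higher was 6.65% in the shortest bin and 28.3% in the longest, and the share lower 14.4% and 5.67% (edgeR). The slope was present within sets as well, falling from 0.13 to -0.08 for 2 minus 1 and rising from -0.12 to 0.08 for 4 minus 3. With per-library trends on exon length and GC content taken out, the ribosomal protein list had 35 genes lower and 4 higher and a median of -0.26. The respiratory list had 29 lower and 7 higher and a median of -0.10, the mitochondrial ribosome 25 lower at -0.16, and the proteasome 10 lower at -0.12. The same correction left 24 genes lower in the ATF4 list at a median of -1.17 and 17 chaperones lower at -0.58. Of the 1902 genes of the block fit, 1685 were still called with the same sign. The fold change of 4 of the 1902 took the opposite sign, counted whether or not they were called.

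**Figure D4:**
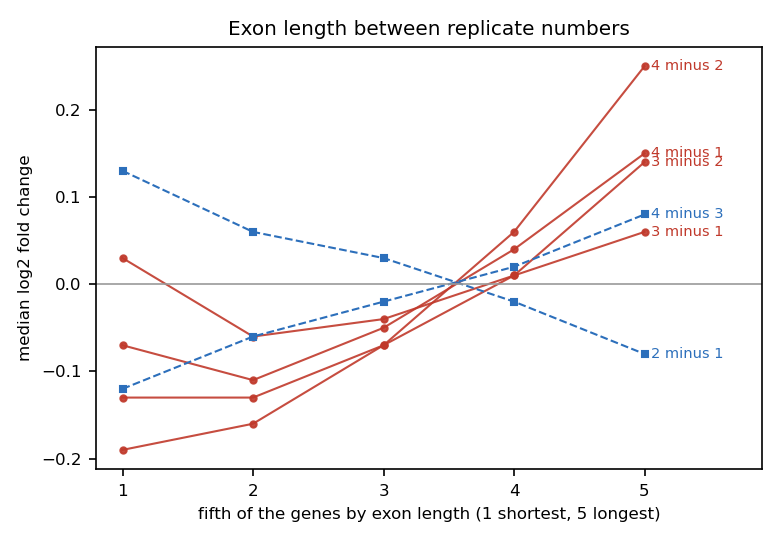
Median log2 fold change (y axis) of the genes in each of 5 bins of exon length (x axis, from shortest to longest) for pairs of replicate numbers. Solid lines with circles are pairs across the sets and dashed lines with squares pairs within a set; the steepest line, 4 minus 2, runs from -0.19 to 0.25, and 2 minus 1 falls from 0.13 to -0.08.

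Histone H2B genes were among the largest differences. Histone mRNAs of S phase end in a stem loop and mostly lack a poly(A) tail. Hist1h2bb (chr13, 23746734 to 23747241, plus strand, GRCm38) had 1 to 17 counts in the libraries of the first set and 559 to 978 in those of the second. This is a ratio of summed CPM of 195, with a 95% interval of 144 to 273 from an exact binomial method that covers counting error only. Hist1h2bf (chr13, 23573736 to 23574196, minus) had 0 to 3 counts against 150 to 290, a ratio of 259 (136 to 567). Hist1h2bm had 0 to 6 against 123 to 228, a ratio of 152 (86.9 to 296). Hist2h2be, on chromosome 3, read 1.54 to 7.16 CPM (median 3.67) against 14.8 to 21.5 (median 17.5). In every library of the second set these 4 genes lay above every library of the first.

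Other histones did not share this pattern. The summed level of 11 H2B genes was 14 to 24.2 CPM in the first set and 60.7 to 87.6 in the second, whereas the sums of H1, H2A, H3 and H4 genes overlapped. Hist1h2bc, also of H2B and named after its values were seen, fell by 0.61 on the log2 scale (edgeR). H2B genes are near copies of each other: of all 50-base windows of the transcript, 40.1% in Hist1h2bb, 65.8% in Hist1h2bf and 43.8% in Hist1h2bm occur in other genes too, so their levels are uncertain by reads that fit several copies. In Hist2h2be 0 of 2571 windows did.

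Gm12957, a processed pseudogene on chromosome 4 (119520990 to 119521366, plus strand), was all but absent from the first set, with 2 counts over its 6 libraries, and held 167 to 240 counts in each library of the second. The ratio was 1050 (289 to 8650). It shares 36 of its 328 windows with Hist1h2bm. Only 2 genes were read at 10 counts or more in each library of one set and at most 1 in each of the other. The other was Cox6a2, a muscle form of a cytochrome oxidase subunit, with 20 to 39 counts in the first set. Both were found after the values were seen.

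A few short RNA genes rose beside the ribosomal RNA share. Mir6236 read 68.2 to 117 CPM in the first set (median 86.7) and 144 to 304 in the second (median 262), a log2 fold change of 1.49 ± 0.18 (edgeR adjusted p = 0.000194). All 4 ribosomal RNA genes tested were higher (edgeR), with 1 called by limma with the block. MicroRNA genes took 0.0116 to 0.0185% and 0.0212 to 0.0387% of counts, of which Mir6236 made up most. The microRNA list was drawn by gene symbol and holds the host gene Mir670hg. Of its 11 genes 2 were higher and 2 lower, with a median of -0.56 (edgeR). Of the 11 genes annotated as microRNAs 4 were higher and 0 lower, with a median of 0.29, so the direction depended on the definition. Of 25 genes annotated as small nucleolar RNAs 0 were higher and 1 lower at a median of -0.48 (edgeR). The part of library preparation in these values was not tested.

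The label "retina progenitors" was set against retinal markers. Rax read 4.12 to 35.7 CPM in the first set (median 20.9) and 4.42 to 33.8 in the second (median 16.8), Six3 27.7 to 111 against 33.0 to 121, and Pax6 155 to 371 against 156 to 331. None of Rax, Six3, Six6 and Pax6 was called, and Lhx2 was lower by 0.40 ± 0.13 (SE; edgeR adjusted p = 0.0391) but not with the block (limma adjusted p = 0.197). Pigment epithelium genes Mitf, Tyr and Dct were present in both sets and not called. Mitf read 10.9 to 82.6 CPM against 17.1 to 90.02. None of these retinal markers was called higher in the second set and none of the pigment ones lower, and both sets are called by their replicate numbers here.

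Over 28 eye field and optic vesicle regulators, 3 were higher and 4 lower (edgeR), a share near that of all genes, and 1 was lower with the block. The gene lower with the block was Nr2e1, a factor of retinal and forebrain progenitors, which read 67.2 to 133 CPM (median 107) against 39.6 to 78.0 (median 56.0). Within control 3 of the 28 were lower and 0 higher, against 1.5% and 1.83% of all genes. Within LDHi and within LDHi+lactate 0 were called. The median log2 fold change of the list was -0.27 within control, 0.47 within LDHi and 0.31 within LDHi+lactate. Otx2 rose by 0.50 on the log2 scale and was not called with the block (limma adjusted p = 0.125). Sox2, Fzd5, Shisa2, Tbx2 and Pax2 were not called in any of the 3 fits. Treatment took 58.4% of the variance in the median gene of this list and the set 5.19%.

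Other tissue programs differed in a few members each, beside 13% of all genes higher over 12 libraries (edgeR) and 5.38% with the block (limma). Of 19 neural crest and border genes 7 were higher (edgeR; 5 by limma with the block), with a median of 0.53. Dlx3, a factor of the neural plate border, read 2.15 to 9.73 CPM (median 5.67) against 6.83 to 17.3 (median 13.1), and Pax7, of crest and dorsal midbrain, rose by 1.05 on the log2 scale. The count higher was 2 without replicate 2 and 3 without replicate 4. Of 23 midbrain and hindbrain regulators 6 were higher (edgeR; 4 by limma), with 3 without replicate 2 and 2 without replicate 4. Lmx1b, which patterns the isthmus, read 3.77 to 11.9 CPM (median 6.66) against 13.8 to 41.3 (median 18.6) with no overlap, a log2 fold change of 1.61 ± 0.21 (edgeR adjusted p = 0.000323). Wnt1, expressed at the same border, rose by 1.23. Of 29 Hox cluster genes 6 were higher (edgeR; 3 by limma) at a median of 0.90, all at low levels: Hoxd8 read 0.122 to 0.325 CPM against 0.544 to 0.826. Without replicate 2 the Hox count was 1 and without replicate 4 it was 3.

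Of 14 smooth muscle and contractile genes 6 were higher (edgeR; 3 by limma), among them Cald1, which binds actin and tropomyosin and rose by 0.85, and Synpo2, which rose by 1.12. For forebrain and endoderm genes the counts lower were near the 13.3% of all genes. Of 25 telencephalon and forebrain regulators 4 were lower (edgeR; 2 by limma), and 2 without replicate 2. Fezf1, which read 27.0 to 49.6 CPM (median 31.5) against 7.84 to 26.2 (median 16.8), and Fezf2, which fell by 0.78, are zinc finger factors of the forebrain. Of 25 endoderm genes 3 were lower (edgeR; 2 by limma, 10 without replicate 1 and 6 without replicate 3), including Sox17, with 45.1 to 73.6 CPM (median 53.2) against 20.1 to 36.7 (median 30.9), and Foxa2, which fell by 1.19 on the log2 scale. Of 21 hedgehog pathway genes 6 were lower and 2 higher (edgeR; 2 and 2 by limma), with 3 lower without replicate 4. Hhip, a hedgehog antagonist, read 3.56 to 5.25 CPM against 1.51 to 2.34, and the coreceptor gene Cdon rose by 0.86. Of 22 genes of the two-cell-like state 8 were higher over 12 libraries (edgeR) and 0 with the block (limma), and 2 without replicate 2 and 0 without replicate 3 (edgeR), with Zscan4f at 0.369 to 1.53 CPM against 1.17 to 3.80.

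In some of these lists experiments of one set lay as far apart as the sets. The median of the proneural and early neuron list was -1.18 for 2 minus 1 and 1.32 for 4 minus 3, and ran from -1.05 to 1.79 across the sets. In that list 4 of 30 were higher, near the 13% of all genes (edgeR; 2 by limma, 0 without replicate 2, 1 without replicate 4), Pou4f1 and Onecut2 among them, and the replicate number within a set took 62.5% of the variance of the median gene. For endoderm the same medians were 1.10 and -0.98, with -1.71 to 0.54 across the sets. The two-cell-like list was unlike these, with 0.48 to 1.01 across the sets and -0.18 and -0.25 within them. In the median gene of the hedgehog list the set took 30.5% of the variance and the replicate number 13.4%.

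Of 52 imprinted genes 12 were higher and 7 lower (edgeR; 9 and 4 by limma), the latter near the 13.3% of all genes, and 7 were higher without replicate 4. Igf2, a paternally expressed growth factor, read 0.39 to 2.26 CPM (median 0.705) against 1.51 to 11.9 (median 3.82), a log2 fold change of 2.38 ± 0.30 (edgeR adjusted p = 0.000247). H13, a signal peptide peptidase, read 57.5 to 69.8 CPM (median 63.3) against 41.4 to 45.7 (median 42.9). Over all genes 13% were higher and 13.3% lower (edgeR), and 5.38% and 4.75% with the block (limma). Of 28 histone acetylation genes 6 were higher and 3 lower (edgeR; 4 and 3 by limma), with a median of 0.06. Of 27 DNA methylation and Polycomb genes 10 were higher and 2 lower (edgeR; 3 and 1 by limma). In both lists the share lower by edgeR was below that of all genes. Among the list members Crebbp, a histone acetyltransferase, rose by 0.76 and Tet2, which oxidises methylated cytosine, by 0.69, with ranges that did not overlap. Tap1, which loads peptides for antigen presentation, rose by 1.15 while B2m, of the same pathway, fell by 0.38 (edgeR).

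Within single treatments, where 2 libraries faced 2, the joint fit called 343 higher (1.83%) and 282 lower (1.5%) in control. It called 229 (1.22%) and 179 (0.953%) in LDHi, and 255 (1.36%) and 164 (0.873%) in LDHi+lactate (edgeR). In each of them the ATF4 list held many of these calls, with 23 of 30 lower in control, 22 in LDHi and 22 in LDHi+lactate, and the chaperone list 13, 14 and 13 of 19.

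Whether the treatments acted alike in both sets was tested as an interaction. Without a block, edgeR found none at the adjusted threshold, that is 0 genes (396 at an unadjusted p under 0.05), and a DESeq2 likelihood ratio test found 9. With the replicate number as a fixed block, 324 genes (1.72%) were called for a treatment effect that differed between the sets (edgeR F test; 2909 at an unadjusted p under 0.05). This count varied with single experiments and was 243 without replicate 1, 155 without 2, 89 without 3 and 5 without 4. For LDHi against control alone, the effect in the second set was above that of the first in 216 genes (1.15%) and below it in 516 (2.75%). The control of replicate 4 stood apart from that of replicate 3 in several of these genes, as given next.

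The median log2 fold change of LDHi against control over the 28 eye regulators was -1.81 in the first set and -0.87 in the second, and in 11 the LDHi effect was called above that of the first set, in 1 below (edgeR). Six6, a retinal progenitor factor, read 142 and 130.5 CPM in the controls of replicates 1 and 2 and 6.73 and 3.58 with LDHi. In the second set it read 98.2 and 23.0 CPM in the controls of replicates 3 and 4 and 19.6 and 7.92 with LDHi. The effects were -4.76 and -1.99 on the log2 scale, which differed by 2.77 ± 0.29 (SE; edgeR adjusted p = 0.00305). The low control was that of replicate 4. Not all members were lower with LDHi: Sox2 rose by 0.67 in the first set and 0.55 in the second (edgeR adjusted p = 0.000345 and 0.000796).

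Neuronal genes were the opposite case, with LDHi medians of different sign. Over 30 proneural and early neuron genes the median was 0.99 in the first set and -0.56 in the second, and the effect was called below that of the first set in 16 (edgeR). Map2, a microtubule protein of neurons, read 69.2 and 24.9 CPM in the controls of replicates 1 and 2 and 211 and 81.4 with LDHi. In the second set its controls read 52.04 and 244, and LDHi 37.2 and 149, so replicate 4 was high in both. The difference of effects was -2.28 ± 0.24 (SE; edgeR adjusted p = 0.00305). Among Wnt pathway genes the effect was below that of the first set in 13 of 41. Rspo3, which amplifies Wnt signals, went from 51.7 and 20.7 CPM to 221 and 143 in the first set and from 77.5 and 141 to 93.5 and 143 in the second.

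Endoderm and glycolysis genes had a higher LDHi effect in the second set. Over 25 endoderm genes the LDHi median was -0.17 in the first set and 1.05 in the second, with 9 called above (edgeR). Afp, a product of visceral endoderm, read 8.63 and 18.0 CPM in the controls of the first set and 1.86 and 3.71 with LDHi, against 5.91 and 0.781 in the controls of the second and 25.2 and 3.27 with LDHi. Over glycolysis genes the medians were -0.19 and 0.28, with 8 of 26 called above. Slc2a1, the glucose transporter GLUT1, read 712 and 786 CPM in the controls of the first set and 507 and 496 with LDHi, but 841 and 699 in the controls of the second and 1175 and 892 with LDHi. The ATF4 list had medians of 0.14 and 0.20, with 2 members called above and 3 below. Asns stood among those above, at 0.12 in the first set and 0.94 in the second, and Atf5 among those below, at 1.05 and 0.28. Map2, Rspo3, Afp, Slc2a1 and Asns were chosen after their values were seen.

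**Figure D5:**
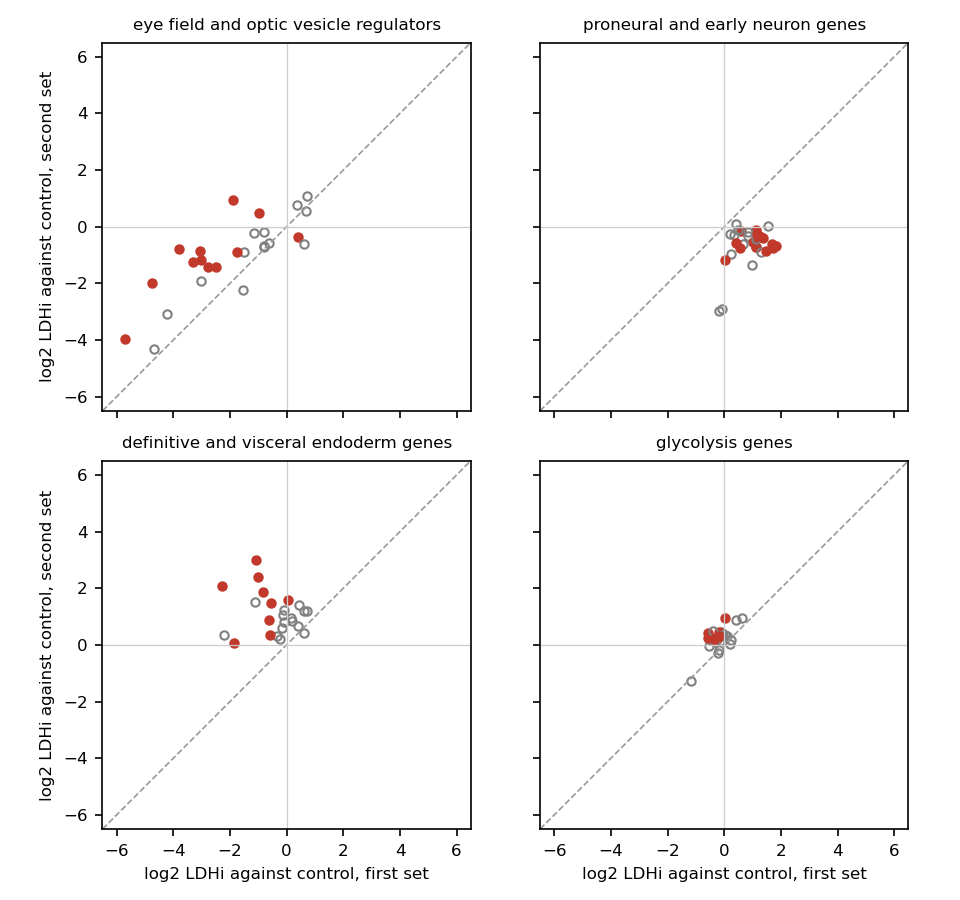
Log2 fold change of LDHi against control in the first set (x axis) and the second set (y axis) for 4 gene lists, with 1 point a gene; filled points are genes whose effects differ between the sets (edgeR with fixed replicate block, adjusted p under 0.05). Most filled eye, endoderm and glycolysis genes lie above the dashed line of equal effects and the filled proneural genes below it, by 11, 9, 8 and 16 genes. A few open points fall outside the axes, among them Cer1 (7.3 in the second set) and Aldh1a1 (-7.01 in the second set).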

How the data were processed

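The authors deposited raw counts per Ensembl gene for 12 libraries, with no normalization. The methods give TruSeq mRNA libraries sequenced as single reads. The submitters' notes name cutadapt 1.13, STAR, HTSeq 0.6.1p1, DESeq2 1.14.1 and mm10, while sources used here do not give the annotation release or the strand setting. Of 54232 gene IDs, 54165 (99.9%) were matched to GENCODE vM21. Mitochondrial genes hold 0 counts.

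Sets and treatments came from the labels. Genes passing filterByExpr (18786) were fitted with edgeR 4.0.16 in R 4.3.3 (TMM, quasi-likelihood, set plus treatment) and called at a Benjamini-Hochberg adjusted p under 0.05 with no fold threshold. Beside it stand limma 3.58.1 voom with the replicate number as a random block (correlation 0.393) and edgeR on counts summed per replicate number. Libraries of a number were taken as one experiment from the correlations of their deviations (0.27 to 0.599), not from a statement of the labels. CPM used TMM factors. The interaction of set and treatment was fitted without and with the number as a fixed block. p-values measure the spread between these libraries.

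Genes were described in 65 lists and families with counts and medians and no set test. The rule names up to 12 genes in each direction called over 12 libraries and on the sums, provided that mean log2 CPM was 0 or more and the sets did not overlap. In each list it names up to 4 such members and up to 2 others of smallest adjusted p, and the eye genes the study names. Not every gene that meets it is printed. Sets, lists and genes were chosen with earlier results of these data known. Fits were tested on simulated counts. Alternatives were DESeq2 1.42.0, other scalings and filters, thinned counts, length and GC offsets, single treatments and left-out libraries; variants of the blocked interaction were added after the data were seen. Plots used matplotlib 3.10.9. Counts of 0 limit only what this depth could show. One marker gene is not reported here.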

Additional observations from a re-analysis of the deposited data

Results flagged for a closer look

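In groups of 6 libraries, the highest or lowest value stood far from the others in 13 of 262 groups checked. Chance flags about 1 in 20 groups, which is near the share flagged here. Each group held 3 treatments, and treatment effects were not taken out before the check. The LDHi+lactate library of replicate 3 was high for Hspa5 (968 CPM) and Fzd5 (122 CPM) and low for Hoxd8 (0.544 CPM), and the LDHi library of replicate 3 was high for Slc7a5 (183 CPM). The control library of replicate 4 was high for Pdgfrb (37.7 CPM) and Tyr (29.1 CPM) and low for Iars (194 CPM), and the control library of replicate 3 was high for Efna5 (151 CPM). Trim66 was high in the LDHi+lactate library of replicate 4 (2.88 CPM). In the first set the LDHi library of replicate 1 was high for Pou4f1 (11.1 CPM) and Onecut2 (18.3 CPM), and the control library of replicate 1 was high for Tbx2 (73.5 CPM) and Stc1 (3.48 CPM).

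By a joint edgeR interaction test with a fixed replicate block, the effect of treatment differed between the sets for these genes. The values that follow are the log2 effect of LDHi in the second set minus that in the first. Among eye and pigment genes they were 2.77 for Six6, 3.03 for Aldh1a3, 2.07 for Pax2, 1.83 for Shisa2 and 1.08 for Dct. Neuronal and forebrain genes gave -2.28 for Map2, -1.54 for Stmn2, -1.31 for Onecut2 and -1.10 for Lhx5. The Wnt amplifiers Rspo3 and Rspo2 gave -2.27 and -2.66. Endoderm genes gave 4.35 for Afp and 4.08 for Apoa1. Metabolic genes gave 0.99 for Slc2a1, 1.19 for P4ha2, 0.82 for Asns, 0.78 for Slc7a3 and -0.77 for Atf5. Lars2 gave 0.26, and for it the LDHi contrast alone was not called (edgeR adjusted p = 0.314). Without the block the joint test called 0 genes, and without replicate 4 the blocked test called 5 genes in all.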

How the results depend on the processing

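The counts of genes higher and lower in the second set stayed within 1.5 times of 2447 and 2505 under DESeq2, other scalings and filters, thinned counts, length and GC offsets and no treatment term. An absolute log2 fold change of at least 1 left 380 and 299. The replicate block gave 1010 and 892, sums per number 4 and 14, control libraries alone 4 and 7, LDHi alone 15 and 26, and LDHi+lactate alone 2 and 15, with fewer samples in the last 4. Leaving out a replicate number or a library gave 1473 to 2470 higher and 1213 to 2494 lower. For treatment effects that differ between the sets, DESeq2 gave 9 and the fixed replicate block 324. Alternatives of that block chosen after seeing the data gave 318 with RLE factors, 304 with at least 10 counts in every library, 340 thinned and 1020 with DESeq2, and 243, 155, 89 and 5 without replicates 1 to 4.

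Among the genes named here, those whose sign reversed were not called between the sets over 12 libraries. With replicate numbers left out, log2 fold changes ran from -0.41 to 0.82 for Rax, -0.31 to 0.53 for Six3, -0.88 to 0.71 for Six6, -0.23 to 0.19 for Pax6, -0.59 to 0.41 for Fzd5, -0.66 to 0.39 for Shisa2, -0.23 to 1.11 for Pax2, -3.21 to 6.26 for Tyr, -0.80 to 1.70 for Dct, -0.99 to 1.36 for Map2, -0.46 to 0.80 for Stmn2, -1.33 to 1.58 for Afp, -0.32 to 0.22 for Lhx5, -0.02 to 0.21 for Kars and -0.49 to 0.58 for Aldh1a3. The block turned Rax (-0.12), Six6 (-0.95), Pax2 (-0.08), Dct (0.08), Afp (-0.13) and Aldh1a3 (-0.53). Sums turned Six6 (-0.48), Fzd5 (0.05) and Aldh1a3 (-0.43), offsets turned Lhx5 (0.07), and RLE factors moved Dct to 0. The cause was not tested. Depth in the second set limits what can be seen of rare transcripts. With all libraries thinned to the smallest total, 23855 to 25064 genes were detected in the first set and 22724 to 23226 in the second. The source of this remaining difference was not tested.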

Other observations

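Genes called higher were unevenly spread over the chromosomes: 17.8% of 943 genes on chromosome 3 and 16.1% of 983 on chromosome 8 were higher in the second set, with 10.2% and 7.32% lower, against 13% and 13.3% of all genes (edgeR). Processed pseudogenes had a median log2 fold change of 0.24, with 165 of 1262 higher and 63 lower, against -0.01 for protein-coding genes (edgeR). With the replicate block 1.66% of these pseudogenes were higher and 1.66% lower (limma), and within sets the medians of their fold changes were 0.17 for 2 minus 1 and -0.19 for 4 minus 3. On the sex chromosomes the Y-linked Eif2s3y fell by 0.55 and the X-linked Kdm5c rose by 0.33 on the log2 scale (edgeR).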
